A study of Mus musculus with 4 samples.

Results

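The genes described here are the 8 members of the suppressor of cytokine signaling (SOCS) family, *Cish* and *Socs1* to *Socs7*, in CD8αβ+ intraepithelial lymphocytes (IELs) of the mouse small intestine and in CD8αβ+ T cells of the spleen (SPLs). They were found by symbol among the probes of the array that are not controls, where 15 of 41174 probes carried the symbol of a member. The symbols of the array name 27376 genes in all. Of the 15 probes, 13 entered the test because the scanner software marked them as well above background in both samples of a group, and each of the 8 genes had at least 1 tested probe. RNA from sorted cells of untreated male C57BL/6 wild-type mice, 8 to 12 weeks old and kept under specific pathogen-free conditions, was measured with 2 samples for each tissue, and every sample was a pool of several mice. Both groups were sorted by the same markers, and no allele, transgene or agent was used in either. Each sample was hybridized to 1 Agilent one-color whole mouse genome array. IEL replicate 1 and SPL replicate 2 lay on slide 1, and IEL replicate 2 and SPL replicate 1 lay on slide 2. Since the samples are pools, the spread between them is that between pools and not between single mice.

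Cytokines that bind receptors of the JAK-STAT class activate Janus kinases, which phosphorylate STAT proteins, and the STATs then switch on target genes that include several SOCS genes. The SOCS proteins close this loop: a central SH2 domain binds a phosphorylated receptor or kinase, and the C-terminal SOCS box recruits elongins and the scaffold protein cullin 5, so that the bound protein is marked for degradation. In T cells, *Cish* is known as a target of STAT5 downstream of IL-2 and related cytokines. *Socs1* and *Socs3* carry a short kinase inhibitory region and block Janus kinases directly.

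The RefSeq window of 250 bases before the start of the gene is shown for *Cish*, the member that differed the most between groups, and for *Socs3*, the member that varied the least. Coordinates are those of GRCm38.p6, and each sequence is written 5′ to 3′ on the strand of its gene. Capitals mark the STAT motif TTCNNNGAA, which reads the same on both strands. *Cish* lies at chr9:107296409-107296658 on the plus strand and *Socs3* at chr11:117969367-117969616 on the minus strand.
Cish: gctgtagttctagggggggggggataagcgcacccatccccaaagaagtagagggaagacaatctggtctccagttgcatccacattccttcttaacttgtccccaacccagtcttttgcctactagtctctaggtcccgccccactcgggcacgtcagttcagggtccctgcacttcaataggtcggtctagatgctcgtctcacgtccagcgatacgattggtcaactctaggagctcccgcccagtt
Socs3: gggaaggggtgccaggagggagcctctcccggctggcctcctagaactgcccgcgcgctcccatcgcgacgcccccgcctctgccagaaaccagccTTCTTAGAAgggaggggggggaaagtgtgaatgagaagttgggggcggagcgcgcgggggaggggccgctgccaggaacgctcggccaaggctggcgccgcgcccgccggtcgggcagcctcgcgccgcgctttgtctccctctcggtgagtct
The motif occurred 1 time in the *Socs3* window, with its first base 154 bases before the start, and 0 times in the *Cish* window. Windows were at hand for 4 of the 8 members, and those of *Socs1* and *Socs4* also held 0 copies. Among 27025 genes with such a window, 8.13% held the motif. The motif was not sought outside these 250 bases, so a count of 0 does not speak for the rest of a promoter. These matches describe the letters of the window and were not tied to any measured difference.

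Values are given as levels, that is, the log2 of the processed intensity minus the array's own 75th percentile, so that a level of 0 equals this percentile and a step of 1 is a 2-fold difference. The 75th percentile lay between 312 and 605 intensity units on the 4 arrays, the share of probes well above background lay between 63.6% and 69.6%, and 0 spots were saturated. The 2 IEL samples were unlike each other. Across probes, the levels of IEL replicate 2 had a correlation of 0.946 with IEL replicate 1 and of 0.992 with SPL replicate 1, the other array of slide 2. The correlation was 0.986 between both SPL samples and 0.911 between the arrays of slide 1, IEL replicate 1 and SPL replicate 2. An IEL mean thus averages 2 unlike samples. The SPL samples, though close over all probes, differed in the gut markers listed below. For SPL replicate 1 the list means were 4.09 (gut-resident T cells), -2.51 (epithelium) and -1.11 (Paneth cells). SPL replicate 2 stood lower, at 1.66, -4.49 and -4.42 in that order. For such genes an SPL mean also averages unlike samples. Whether the cells of IEL replicate 2, or of either SPL sample, were what the label says was not tested. The mean level of 7 T cell markers lay between 5.48 and 5.71 on all arrays, but its members differed. On both IEL arrays 2 of the 7 were higher than on both SPL arrays and 3 were lower. The shares over all tested probes were 24.4% and 24.6%. In IEL replicate 1 *Cd8a* was at its highest (7.08) and *Cd8b1* at its lowest (7.40). *Cd2* was at 2.27 there, against 3.76 to 4.15 on the other arrays. The samples kept their labels, and each member is given below on every array, within each slide and without IEL replicate 2.

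Across all tested probes, limma called 0 of 27937 probes at an adjusted p of 0.05 (0% of those tested), with 1295 higher and 308 lower in IELs at an unadjusted p under 0.05. None of the 8 genes was called either. At an unadjusted p under 0.05, limma gave 1 of the 8 genes, *Cish*, beside 5.74% of all tested probes. With 2 samples per group, an exact permutation test over samples cannot give a two-sided p below 0.33.

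*Cish* and *Socs2* were the 2 genes whose level was higher on both IEL arrays than on both SPL arrays, *Socs3* was the 1 gene that was lower on both, and the other 5 overlapped. Over all tested probes, 24.4% were higher on both IEL arrays and 24.6% were lower on both, so the members' counts were near this background. The median log2 fold change of the 8 genes was 0.25, beside -0.00068 for all tested probes. In bulk RNA of this kind, fewer cells of a type and less RNA per cell cannot be told apart.

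**Figure D1:**
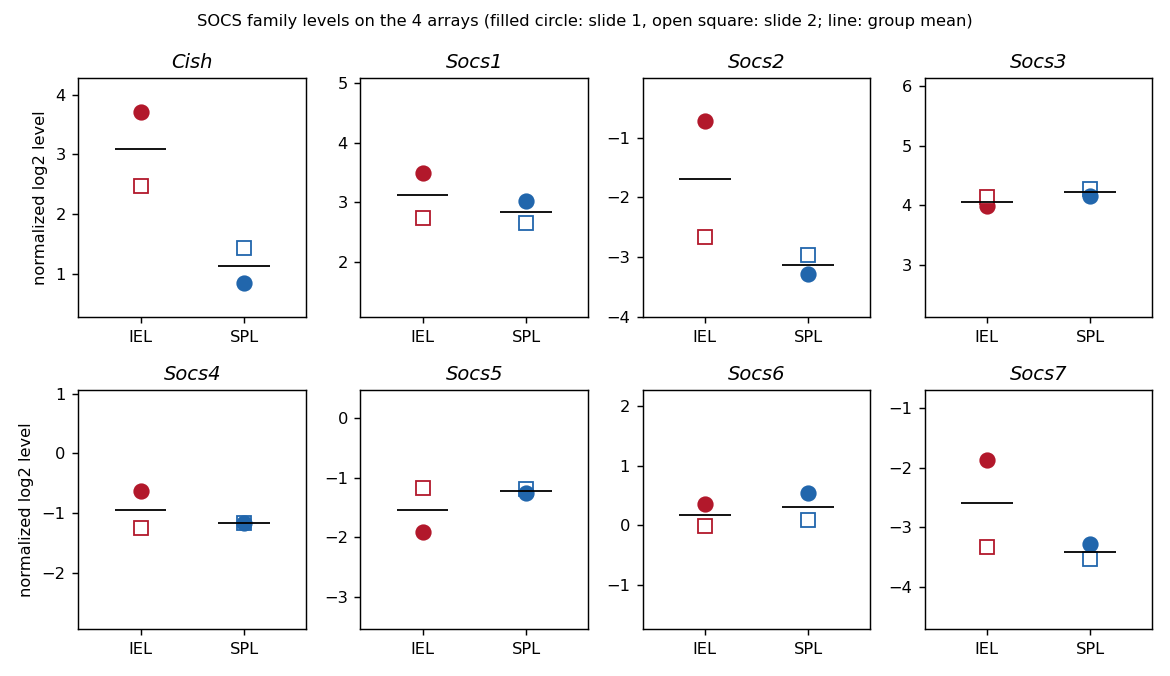
Level of each SOCS family gene (y axis, log2 of the processed intensity relative to the array's 75th percentile) in the 2 IEL samples (red) and the 2 SPL samples (blue), with filled circles for slide 1, open squares for slide 2 and a line at the group mean. Every panel spans the same number of log2 units, with its own position on the axis. *Cish* shows both IEL points above both SPL points, while *Socs2* and *Socs7* show 1 IEL point apart from the other 3 arrays.

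*Cish*, which restrains signaling by IL-2 family receptors and by the T cell receptor, showed the widest differences of the family. Its only probe lies at chr9:107204196-107204255 (plus strand, mm9, as the array's annotation gives it). The level was 3.70 and 2.47 in IEL replicates 1 and 2, and 1.42 and 0.84 in SPL replicates 1 and 2, which corresponds to processed intensities of 4063, 2412, 1285 and 1084 units. Both IEL samples were above both SPL samples, on each slide and over all 4 arrays. The difference between IELs and SPLs was 2.86 on slide 1 and 1.05 on slide 2 on the log2 scale, or 7.27-fold and 2.07-fold. Only *Cish* of the 8 genes was at least 2-fold higher in IELs on slide 2, where 2.46% of all tested probes were. The log2 fold change over all arrays was 1.96 with a standard error of 0.51, a 95% interval of 0.58 to 3.33 and an adjusted p of 0.634 in limma. The gap between the means was 3.88-fold, beside an SD of 0.87 between the 2 IEL levels and of 0.41 between the 2 SPL levels.

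*Socs2*, known above all as a brake on growth hormone signaling, was high on 1 array. Its tested probe lies at chr10:94875066-94875125 (minus strand, mm9). The level was -0.72 and -2.66 in IEL replicates 1 and 2, and -2.97 and -3.28 in SPL replicates 1 and 2, from intensities of 189, 68.6, 61.2 and 62.1 units. IEL replicate 1 was 1.94 above the next array, while the other 3 arrays lay within 0.62 of each other. The difference was 2.56 on slide 1 and 0.31 on slide 2. The log2 fold change was 1.43 with a standard error of 0.70, a 95% interval of -0.45 to 3.32 and an adjusted p of 0.634 in limma, and it was -0.24 with a normexp correction of the background, a setting that moved the median over all tested probes to -0.39. A second probe, 24319 bases away and designed on another transcript, was well above background on 0 arrays and was not tested.

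*Socs7*, a member linked to insulin receptor substrates and to the movement of signaling proteins between nucleus and cytoplasm, shared the single high array. At chr11:97254736-97254795 (plus strand, mm9) its level was -1.87 and -3.33 in IEL replicates 1 and 2, and -3.54 and -3.29 in SPL replicates 1 and 2. IEL replicate 1 was 1.42 above the next array and the other 3 arrays lay within 0.25 of each other, with IEL replicate 2 between both SPL samples. The difference was 1.42 on slide 1 and 0.21 on slide 2. Its log2 fold change was 0.81 with a standard error of 0.55, a 95% interval of -0.66 to 2.28 and an adjusted p of 0.636 in limma. The signal was dim, between 41.3 and 85.2 intensity units, and the log2 fold change was -0.61 under the normexp correction.

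These 3 genes were the members at least 2-fold higher in IELs on slide 1, beside 11.8% of all tested probes, and 0 members were at least 2-fold lower, beside 13.7%. In the same 3 genes IEL replicate 1 was at least 2-fold above each of the other arrays, which held for 6.47% of all tested probes. Their slide 1 differences stood at percentiles 97.7 for *Cish*, 97.2 for *Socs2* and 92.6 for *Socs7* among all tested probes. On slide 2 the percentiles were 97.8, 82.8 and 76.5 in the same order, and 0 members were 2-fold lower there, beside 0.731% of probes.

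**Figure D2:**
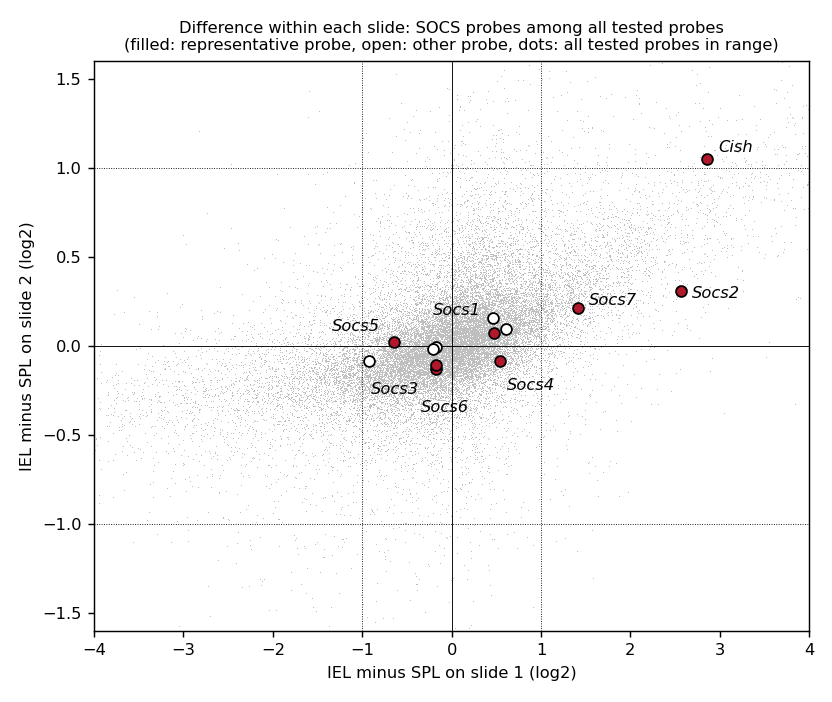
Difference in level between IEL and SPL (log2) on slide 1 (x axis) and on slide 2 (y axis), with filled circles for the representative probe of each SOCS family gene, open circles for their other tested probes, grey dots for all tested probes within the axes and dotted lines at 2-fold. *Cish* lies past 2-fold on both slides (2.86 and 1.05), *Socs2* and *Socs7* on slide 1 only, and the other 5 genes within 2-fold on both.

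*Socs1*, the inhibitor that limits signals of interferon-γ and of the common γ chain cytokines in T cells, overlapped between groups. Its level at chr16:10783951-10784010 (minus strand, mm9) was 3.50 and 2.73 in IEL replicates 1 and 2, and 2.66 and 3.02 in SPL replicates 1 and 2. The highest value was an IEL sample, but the other IEL sample lay between both SPL samples. The log2 fold change was 0.28 with a standard error of 0.36, a 95% interval of -0.70 to 1.25 and an adjusted p of 0.766 in limma.

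*Socs3*, which binds the gp130 chain of the IL-6 receptor, varied the least of all members. At chr11:117827480-117827539 (minus strand, mm9) its level was 3.99 and 4.14 in IEL replicates 1 and 2, and 4.27 and 4.16 in SPL replicates 1 and 2. Both IEL samples were below both SPL samples, but all 4 arrays lay within 0.28 of each other, beside a median range of 0.73 and a lower quartile of 0.43 over all tested probes. The log2 fold change was -0.15 with a 95% interval of -0.77 to 0.47 and an adjusted p of 0.797 in limma, so that a 2-fold difference in either direction lay outside the interval. Its sign turned to 0.29 under the normexp correction and to 0.08 for the mean of both probes. The second *Socs3* probe, at chr11:117828658-117828717, is annotated to the opposite strand. Its level was 3.70 and 3.63 in IEL replicates 1 and 2, and 3.48 and 3.23 in SPL replicates 1 and 2, so it was higher on both IEL arrays, where the first probe was lower. Its log2 fold change of 0.31 (adjusted p = 0.648 in limma) did not pass the test.

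*Socs4* and *Socs5*, a closely related pair with long N-terminal regions that are known for acting on the epidermal growth factor receptor, both overlapped between groups. The level of *Socs4* at chr14:47910233-47910292 (plus strand, mm9) was -0.64 and -1.25 in IEL replicates 1 and 2, and -1.17 and -1.18 in SPL replicates 1 and 2. That of *Socs5* at chr17:87536500-87536559 (plus strand, mm9) was -1.91 and -1.17 in IEL replicates 1 and 2, and -1.19 and -1.26 in SPL replicates 1 and 2. In both genes 3 arrays lay within 0.09 of each other and IEL replicate 1 lay apart, above the others for *Socs4* and below them for *Socs5*. The log2 fold changes were 0.23 with a 95% interval of -0.59 to 1.05 for *Socs4* and -0.31 with a 95% interval of -1.22 to 0.59 for *Socs5*, and limma gave adjusted p-values of 0.772 and 0.720. Another 2 *Socs4* probes, 354 bases before and 4987 bases after the first, gave log2 fold changes of 0.35 and -0.09 (adjusted p of 0.640 and 0.891 in limma). The first of these was higher on both IEL arrays and the second overlapped.

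*Socs6*, which like *Socs7* is linked to insulin receptor signaling, also overlapped. The level of its representative probe was 0.36 and -0.02 in IEL replicates 1 and 2, and 0.09 and 0.54 in SPL replicates 1 and 2. Both samples of slide 1 were above both samples of slide 2, whichever tissue they came from. The log2 fold change was -0.14 with a 95% interval of -0.95 to 0.66 and an adjusted p of 0.854 in limma. For this probe a 2-fold difference again lay outside the interval. A neighboring probe 60 bases away gave -0.11. A dimmer probe, between 12.8 and 47.2 intensity units, gave -0.50 and was lower on both IEL arrays, with an adjusted p of 0.634 in limma. Its 95% interval of -1.31 to 0.31 included a 2-fold fall. The last probe, 107787 bases away and designed on another transcript, was well above background on 0 arrays.

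As a whole, 5 of the 8 genes (*Socs1*, *Socs3*, *Socs4*, *Socs5* and *Socs6*) had all 4 arrays within a log2 range of 1, as did 65.8% of all tested probes. *Cish* and *Socs2* were the 2 genes whose levels followed the order IEL replicate 1, IEL replicate 2, SPL replicate 1, SPL replicate 2 from highest to lowest, which 13.8% of all tested probes did.

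Leaving out IEL replicate 2 changed the calls. In this fit IELs were represented by 1 array, which was assumed to vary like the SPL arrays, and 9.10% of 28454 tested probes were called higher and 10.3% lower. The 3 genes called higher were *Cish*, with a log2 fold change of 2.57 and an adjusted p of 0.0155, *Socs2*, with 2.40 and 0.0117, and *Socs7*, with 1.54 and 0.0248, all in limma. None of the members was called lower. The other 5 did not pass, with log2 fold changes of 0.66 for *Socs1*, -0.23 for *Socs3*, 0.53 for *Socs4*, -0.68 for *Socs5* and 0.05 for *Socs6*. Without IEL replicate 1, the array of the other slide, 0 members were called, the log2 fold change of *Cish* was 1.34, that of *Socs2* was 0.46 and that of *Socs7* was 0.09. The size of the *Socs2* and *Socs7* differences thus rested on IEL replicate 1, whereas that of *Cish* stayed above 2-fold with either IEL sample.

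**Figure D3:**
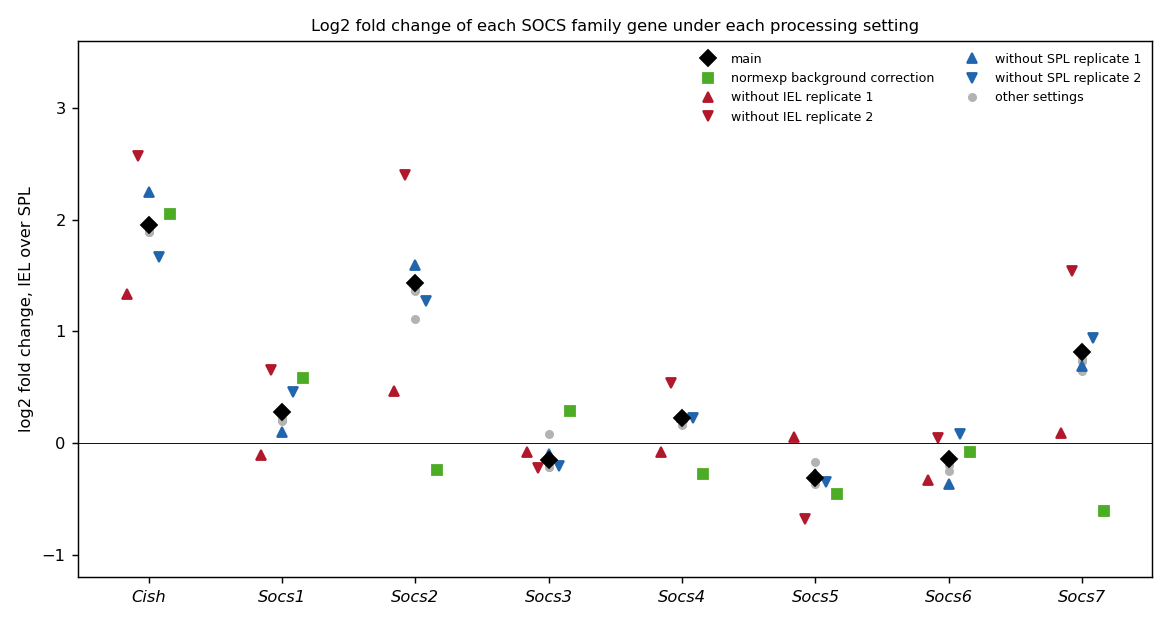
Log2 fold change of IEL over SPL (y axis) for each SOCS family gene (x axis), with black diamonds for the values as reported, triangles for fits without 1 sample, green squares for the normexp background correction and grey points for the remaining settings. *Cish* lies between 1.34 and 2.57 over the fits without 1 sample, *Socs2* between 0.46 and 2.40, and *Socs7* between 0.09 and 1.54.

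Marker genes of other cell types were measured beside these results. The 5 markers of gut-resident T cells (*Itgae*, *Cd69*, *Cd160*, *Gzma* and *Gzmb*) had mean levels of 6.31 and 5.05 in IEL replicates 1 and 2, and of 4.09 and 1.66 in SPL replicates 1 and 2. The 7 epithelial markers, *Epcam*, *Vil1* and *Fabp2* among them, had mean levels of 0.99, -1.23, -2.51 and -4.49 in the same order, and 7 of 7 were well above background on each array but SPL replicate 2, where 6 were. Their summed intensity relative to the 75th percentile was 4.44 to 23.4 in IELs and 0.36 to 1.75 in SPLs. The 5 Paneth cell markers (*Defa4*, *Defa6*, *Mmp7*, *Itln1* and *Lyz1*) had mean levels of 4.67, -0.13, -1.11 and -4.42. Well above background were 4 of 5 in SPL replicate 2 and 5 of 5 elsewhere. The mean of SPL replicate 2 includes *Itln1*, which was not well above background there, at a level of -8.52. The summed intensity was 10.9 to 389 in IELs and 5.17 to 7.53 in SPLs, where *Lyz1* had the highest level of the 5. The mean levels of these 3 lists had the same order of arrays as *Cish* and *Socs2*. On slide 2 the median difference between IELs and SPLs was 1.16 for the gut-resident list, 1.28 for the epithelial list and 1.36 for the Paneth list. That of *Cish* was 1.05 and that of *Socs2* was 0.31. The part of the 3 lists in the result was not tested. *Cd69* and *Lyz1* did not follow the order of these list means. The level of *Cd69* was highest in SPL replicate 2, at 5.13 against 4.75 to 5.02 elsewhere. That of *Lyz1* was lower in IEL replicate 2 (1.97) than in SPL replicates 1 and 2 (2.30 and 2.35).

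The mean levels of 3 lists of spleen cell types were lowest on IEL replicate 1. The mean level of 4 B cell markers was -2.93 in IEL replicate 1 and between 0.96 and 1.41 on the other arrays. That of 7 macrophage and neutrophil markers was -2.66 against 1.46 to 2.06, and that of 4 erythroid markers was -3.46 against 1.47 to 1.95. On IEL replicate 1, 3 of 4 B cell markers, 5 of 7 macrophage and neutrophil markers and 2 of 4 erythroid markers were well above background, and all of them were on the other arrays. Lower on both IEL arrays than on both SPL arrays were 1 of 4, 2 of 7 and 4 of 4 markers of these lists. Not all members were lowest on IEL replicate 1. *Lyz2* was highest there, with a level of 5.56 against 4.81 to 5.21 elsewhere, and *Cd68* was at -0.65 against -1.38 to -0.51. The summed intensity was 3.54 to 19.5 in IELs and 19.0 to 24.9 in SPLs for the B cell list, 48.2 to 66.8 and 80.2 to 86.9 for the macrophage and neutrophil list, and 1.06 to 74.3 and 98.1 to 115 for the erythroid list. Among the representative probes, those of *Socs5* and *Socs3* were lowest on IEL replicate 1 as well, 0.65 and 0.15 below the next array. So were the most distant *Socs4* probe and the dim *Socs6* probe. The second *Socs3* probe and the other *Socs4* probes were highest there. The part of the cells of these lists in those values was not tested.

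**Figure D4:**
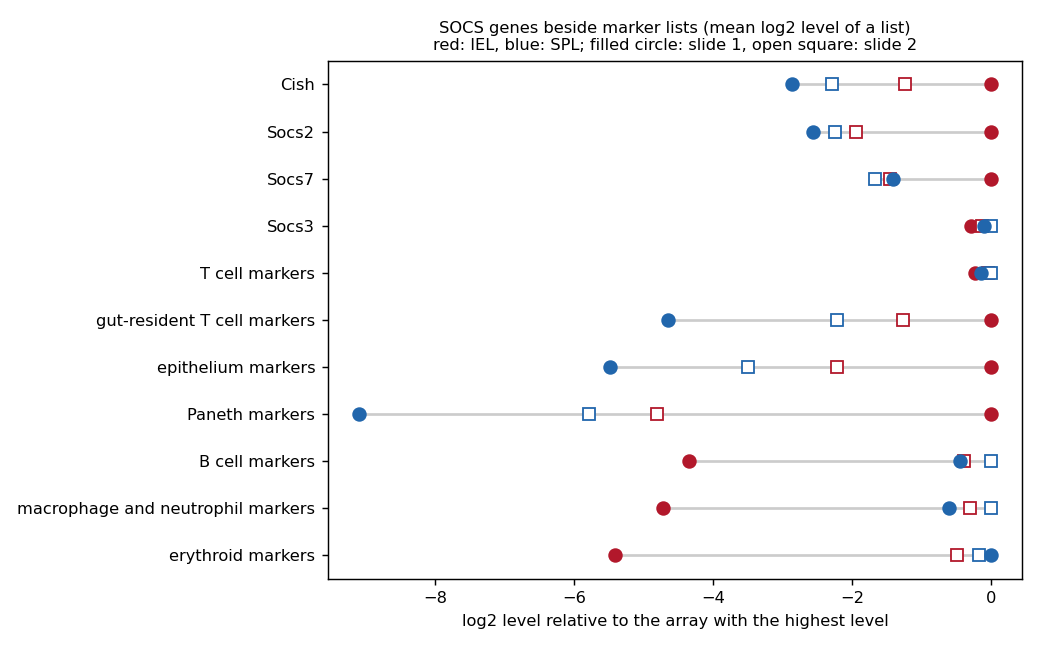
Level of 4 SOCS family genes and mean level of 7 marker lists on each array (x axis, log2 relative to the array with the highest level), with red for IEL, blue for SPL, filled circles for slide 1 and open squares for slide 2. The mean levels of the gut-resident, epithelial and Paneth lists show the order of *Cish* and *Socs2*. Those of the spleen cell types have IEL replicate 1 at the far left. *Socs3* and the mean of the T cell markers span the least.

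The other genes of the pathway were described list by list, and 0 genes of any list were called. Among the ligands, 8 of 15 could be tested. *Ifng*, *Osm*, *Il10* and *Il27* were higher on both IEL arrays, beside 24.4% of all tested probes, *Il15* was lower on both, beside 24.6%, and *Il2* overlapped. *Il6* and *Il12a* were tested through the SPL samples, with IEL replicate 1 not well above background, so 1 of 2 IEL arrays measured them and they are not counted here. The level of *Ifng*, a strong inducer of *Socs1*, was 6.13 and 4.93 in IEL replicates 1 and 2, and 4.19 and 3.19 in SPL replicates 1 and 2. Its log2 fold change was 1.84 with a standard error of 0.58 and an adjusted p of 0.634 in limma. The log2 fold changes of *Osm*, a gp130 cytokine, and of *Il10* were 0.85 and 0.70. That of *Il15* was -0.11.

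Of the receptor chains, 19 of 21 could be tested, with 10 higher on both IEL arrays and 6 lower on both, beside 24.4% and 24.6% of all tested probes, and a median log2 fold change of 0.31. *Il12rb2* and *Il12rb1*, the subunits of the IL-12 receptor, had the largest positive differences of the list, at 2.32 (SE 0.85) and 2.26 (SE 0.64), and the IL-21 receptor *Il21r* came next among the positive ones at 1.54 (SE 0.69). The level of *Il12rb1* was 3.94 and 2.71 in IEL replicates 1 and 2, and 1.70 and 0.43 in SPL replicates 1 and 2. It was 3.51 higher on slide 1 and 1.01 higher on slide 2, and so past 2-fold on both slides, as *Cish* was. Lower on both IEL arrays were *Ifngr2*, a chain of the interferon-γ receptor, at -2.06 (SE 0.92), the IL-6 receptor *Il6ra* at -1.44 (SE 0.92) and the IL-10 receptor chain *Il10rb* at -0.64 (SE 0.40). Each of these 6 genes had an adjusted p of 0.634 in limma. Chosen for their role after their values were seen, the chains of the IL-2, IL-15 and IL-7 receptors, whose signals induce *Cish*, went both ways, with log2 fold changes of 1.40 for *Il2ra*, 0.67 for *Il2rb* and 0.95 for *Il15ra*, but of -0.59 for the common γ chain *Il2rg* and -0.42 for *Il7r*, and *Il6st*, which encodes the gp130 chain bound by SOCS3, had -0.54.

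All 11 kinases and STATs were measured, 7 of them higher on both IEL arrays and 2 lower on both (*Jak1* and *Stat6*), beside 24.4% and 24.6% of all tested probes, with a median log2 fold change of 0.44. *Stat3* was at 1.31 (SE 0.58), *Jak2* at 1.14 (SE 0.56) and *Stat4* at 0.72 (SE 0.51), whereas *Jak1* and *Stat6* were both at -0.40, with adjusted p-values between 0.634 and 0.639 in limma. The level of *Stat3* was 6.69 in IEL replicate 1 and between 4.47 and 5.13 on the other arrays, the arrangement seen for *Socs2*. For *Stat5a* and *Stat5b*, which drive *Cish* and were chosen after their values were seen, the log2 fold changes were 0.02 and 0.61, and the slide 2 differences were 0.004 and 0.06.

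Of the 4 partners of the SOCS box, 0 were higher and 2 were lower on both IEL arrays, beside 24.4% and 24.6% of all tested probes. *Cul5*, which encodes cullin 5, had a level of -0.03 in IEL replicate 1 and between 1.098 and 1.209 on the other arrays, and its difference was -1.24 on slide 1 and -0.10 on slide 2. *Cul5* and *Elob*, listed on the array as *Tceb2*, were lower on both IEL arrays with log2 fold changes of -0.67 and -0.12, while *Eloc* and *Rnf7* overlapped with 0.13 and -0.13. Of 11 other inhibitors of cytokine signaling, 4 were higher on both IEL arrays (*Pias2*, *Pias3*, *Ptpn1* and *Ptprc*) and 3 were lower on both (*Pias1*, *Ptpn6* and *Sh2b3*), beside 24.4% and 24.6% of all tested probes, with a median of 0.15. *Pias3*, an inhibitor of STAT3, was at 0.81, the phosphatases *Ptpn1* and *Ptpn11* were at 0.72 and 0.26, and *Ptpn6*, *Pias1* and the interferon brake *Usp18* were at -0.87, -0.38 and -2.01. *Usp18* overlapped between groups, with a level of -3.16 in IEL replicate 1 and levels between 0.49 and 0.92 on the other arrays.

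Of 14 genes that respond to STATs, 2 were higher on both IEL arrays, 3 were lower on both and 9 overlapped, counts no higher than the 24.4% and 24.6% of all tested probes, with a median log2 fold change of -0.13. The transcriptional repressor *Bcl6* was at 1.49 (SE 0.51) and *Bcl3* at 0.37, while *Myc* was at -1.24 (SE 0.72), *Irf1* at -0.46 and *Mcl1* at -0.16. *Irf8* overlapped at -0.98. The level of *Bcl6* was 4.23 and 2.87 in IEL replicates 1 and 2, and 2.14 and 1.97 in SPL replicates 1 and 2, the same order of arrays as *Cish*, and its adjusted p was 0.634 in limma. Other direct targets, such as *Bcl2*, *Pim1*, *Pim2* and *Bcl2l1* (named after their values were seen), had log2 fold changes of 0.12, -0.25, 0.04 and 0.70. *Bcl2l1* overlapped between groups, with a difference of 1.44 on slide 1 and -0.04 on slide 2.

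**Figure D5:**
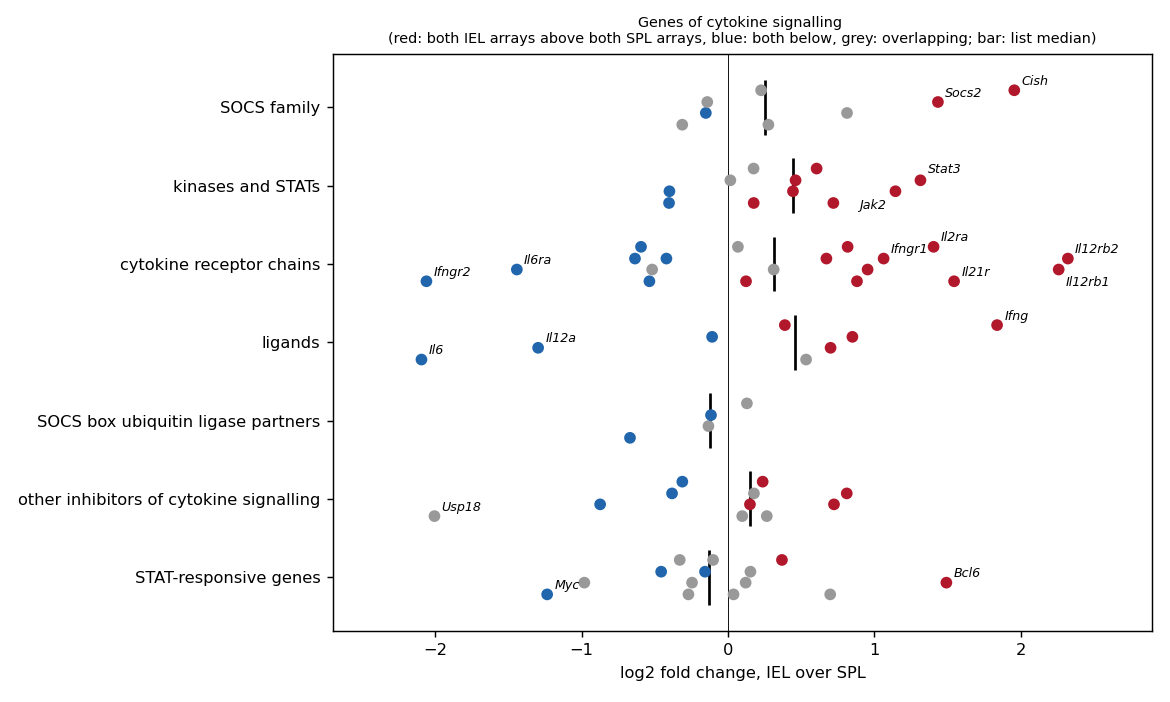
Log2 fold change of IEL over SPL (x axis) for each measured gene of the SOCS family and of 6 lists of cytokine signaling genes (y axis), with red for genes higher on both IEL arrays, blue for genes lower on both, grey for genes that overlapped and a bar at the median of each list. *Cish* lies at 1.96, near *Ifng* at 1.84, and the list medians lie between -0.13 and 0.46, where the ligands include *Il6* and *Il12a*, which IEL replicate 1 did not measure well above background.

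Genes most like *Cish* and *Socs2*, the 2 members with the widest range, were sought among 25092 probes well above background on all arrays, by the root mean square difference of levels centered over the 4 arrays. Nearest to *Cish* were the transcript listed as AK030525, *Sept5* and *Elovl6*, with differences of 0.036, 0.046 and 0.052. Nearest to *Socs2* were *Arhgap31*, *Serpinb1b* and *Pik3ap1*, with 0.020, 0.037 and 0.040. With 4 arrays such a likeness is a description of the order and spacing of the levels.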

How the data were processed

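RNA of CD8αβ+ IELs and CD8αβ+ SPLs, 2 samples each, was measured on 4 one-color arrays. The authors deposited scanner files with intensity values written by Agilent Feature Extraction (10.7.1.1 per the labels, 10.7.3.1 per the file headers), which subtracted a background within each array, and a table of log2 values whose ranks match the scanner values. The methods name PrimeView chips instead. Log2 intensity was scaled by each array's 75th percentile over 43379 spots that are not controls. Spots marked as outliers (98 to 179 per array) were left out and spots of a probe averaged. Probes marked well above background in both samples of a group were tested with limma 3.58.1 (R 4.3.3, with the package data.table in version 1.17.8), without a block, on 2 residual degrees of freedom, two-sided, with Benjamini-Hochberg adjustment over 27937 probes. The number of arrays limits the precision. The deviations of IEL replicate 1 and SPL replicate 1 from their group means had a correlation of -0.025. As these arrays lay on different slides, this value cannot tell whether replicate numbers pair the samples.

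Named were all members, with the brightest tested probe as the representative, and up to 3 genes per list and direction with the largest difference of one sign on both slides. The members and lists were chosen with earlier results of these data known, and 1 of the marker lists is not reported here. Alternatives were quantile, median and other percentile scaling, normexp correction (offset 50) with and without spots over 20 units below background, the authors' log2 values, other filters, marked spots kept, a variance trend, the methods' unpaired test, blocks, the mean over all probes of a gene, and fits that left out each sample.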

Additional observations from a re-analysis of the deposited data

How the results depend on the processing

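The number of probes called was 0 under each setting but 1, and the fits without 1 sample gave 0 to 5521 probes and 0 to 3 SOCS family genes, where the upper values are those without IEL replicate 2. The median log2 fold change of the 8 genes was -0.010 to 0.595 in those fits and -0.157 under normexp, where the median of all tested probes was -0.39 (0.15 where normexp was fitted without spots far below background). Signs turned under normexp for *Socs2* (-0.237), *Socs3* (0.291), *Socs4* (-0.276) and *Socs7* (-0.609), without IEL replicate 1 for *Socs1* (-0.106), *Socs4* (-0.082) and *Socs5* (0.056), without IEL replicate 2 (0.047) and SPL replicate 2 (0.083) for *Socs6*, with the mean of probes for *Socs3* (0.081), and within slide 2 for *Socs4* (-0.086) and *Socs5* (0.022). Over the fits without 1 sample the values ran from -0.106 to 0.657 for *Socs1*, -0.082 to 0.534 for *Socs4*, -0.682 to 0.056 for *Socs5* and -0.367 to 0.083 for *Socs6*. The cause was not tested. The replicate block called 0 probes and 0 members, with 0.284 as the lowest adjusted p of a member in limma. Whether the replicate numbers pair the samples is not known. With slide as a block 0 were called, and the lowest adjusted p of a member was 0.597. The methods' unpaired test gave 470 probes higher and 349 lower at its threshold without adjustment and 0 after Benjamini-Hochberg, with 0 members in either. *Cish* had the same sign under each of these settings. Dim probes limit *Socs2* and *Socs7*, whose intensities were below 100 units on at least 3 arrays.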
